A study of Mus musculus with 17 samples.

Results

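The clade B serpins described here are 8 genes, Serpinb1a, Serpinb2, Serpinb6a, Serpinb6b, Serpinb8, Serpinb9, Serpinb9b and Serpinb10, taken by symbol from a table of 24453 mouse gene models. The family was chosen from measured values, because Serpinb9b was lower in the JunKO than in the Scramble macrophages, so what is said of the members in that contrast describes the choice, and no test is read from it. The 8 members are part of 27 clade B models in the table, and the other 19 were counted beside them.

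Serpins are protease inhibitors that offer a reactive loop to a target protease and trap it in a covalent complex. Clade B members lack a classical secretion signal, act mostly inside the cell, and are known in leukocytes for protecting the cytosol from granule and lysosomal proteases such as granzymes, elastase and cathepsins. In the mouse they lie in a cluster on chromosome 1 and in a second, expanded cluster on chromosome 13.

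The study asked how single AP-1 monomers shape macrophage transcription, and polyA RNA-seq was used in 2 kinds of macrophage. The first kind was the iBMDM, a bone marrow-derived macrophage of C57Bl/6EiJ background immortalised with BRAF(V600E) and Myc, kept in culture at low passage and not stimulated. By label the iBMDM libraries were Scramble Control, Atf3KO, JunKO and JunDKO, 2 libraries each. Per the study's methods, iBMDMs that already held Cas9 were infected with a lentivirus carrying a pair of guides and sorted on its fluorescent protein, and no cloning step is given. The Scramble libraries carry the name zsGreen in their titles. The second kind was the thioglycollate-elicited peritoneal macrophage (TGEM) from male mice without an engineered allele, cultured and given vehicle or Kdo2-lipid A (KLA), a TLR4 agonist, for 1 h. For C57Bl/6EiJ there was 1 vehicle and 1 KLA library, and for Balb/cJ 1 vehicle and 2 KLA libraries. In all, 13 of the 17 listed samples had values. The other 4, GRO-seq libraries of C57Bl/6EiJ TGEMs, were not analysed here.

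Values are RPKM, reads in exons scaled to exon length and to the reads of the library, so levels can be compared between genes. The libraries held 1553297 to 18444441 reads, as worked out from the steps between low RPKM values, and the number of gene models with a read was 10425 and 10631 in the Atf3KO libraries against 11884 to 12533 in the other iBMDM libraries. The 7 macrophage markers summed to 7758 RPKM or more in every library, mostly through Lyz2. Others moved with the groups in either direction. In JunDKO against Scramble, Mertk (36.1 and 36.8 against 7.04 and 8.27 RPKM), Csf1r (703.3 and 562.2 against 473.6 and 350.2), Cd68 (662.0 and 502.3 against 467.1 and 353.2) and Fcgr1 (67.3 and 67.4 against 54.0 and 53.2) were higher, while Adgre1 (423.9 and 471.1 against 668.9 and 744.1), Itgam (212.8 and 219.9 against 441.0 and 420.2) and Lyz2 (15109 and 14815 against 21520 and 20190) were lower. In JunKO Fcgr1 (84.5 and 93.4 RPKM), Itgam (513.9 and 529.2), Lyz2 (28558 and 28531) and Mertk (14.1 and 11.2) were above both Scramble values, in Atf3KO Mertk (28.8 and 24.6), Cd68 (639.5 and 704.6), Csf1r (513.4 and 581.6) and Fcgr1 (67.5 and 59.5) were, and the remaining markers overlapped Scramble. The part of these shifts in the serpin results was not tested. Markers of T, B, NK, mast and mesothelial cells and of fibroblasts summed to under 1 RPKM each in the iBMDMs and eosinophil markers to at most 1.29 RPKM, in JunDKO replicate 1, while in the TGEMs fibroblast markers summed to 37.7 to 77.9 RPKM and B cell markers to 10.1 to 23.9 RPKM. The neutrophil list reached 41.1 RPKM in iBMDMs through S100a8 alone, which was at 0 in both JunDKO libraries and at 21.8 RPKM or more in the other 6, and its part in the JunDKO results was not tested. RNA of the targeted gene did not fall in its own knockout for Atf3 (154 and 169 RPKM in Atf3KO, 77.4 and 80.7 in Scramble) or Jun (20.5 and 26.2 in JunKO, 17.6 and 18.5 in Scramble), and for Jund it was 6.07 and 6.94 RPKM in JunDKO and 8.33 and 9.19 in Scramble, so RNA does not check these labels, since a Cas9 lesion need not lower RNA. One Atf3KO library, replicate 2, bears a later date than the other 7 iBMDM libraries, and its Jund level of 83.0 RPKM stood above the 22.6 RPKM of Atf3KO replicate 1. Both lay above the Scramble values of Jund. Jun was at 46.2 RPKM in Atf3KO replicate 2 and at 17.9 RPKM in replicate 1, beside 17.6 and 18.5 in Scramble.

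Serpinb9 (chr13:33004541-33017955 in mm10, + strand), Serpinb9b (chr13:33027414-33040558, + strand) and Serpinb1b (chr13:33084103-33094380, + strand) are direct neighbours and had the most negative differences from Scramble among the tested clade B genes, while Serpinb8 (chr1:107590006-107606150, + strand) passed the test in Atf3KO and not in JunDKO, with no called difference between those. The 250 bases before their start sites are shown for the 3 neighbours, which were lower together in JunDKO and Atf3KO, and for Serpinb8 as the member whose window holds an AP-1 element. They are RefSeq sequence of build GRCm38.p6, 5′ to 3′ on the gene's strand, from chr13:33027164-33027413 for Serpinb9b, chr13:33004291-33004540 for Serpinb9, chr13:33083853-33084102 for Serpinb1b and chr1:107589756-107590005 for Serpinb8. Capitals mark a match to the AP-1 element TGAGTCA or TGACTCA (TRE), to the ATF/CREB element TGACGTCA (CRE), to the antioxidant response element TGACNNNGC or GCNNNGTCA (ARE), or to the PU.1 letters GAGGAAGT or ACTTCCTC, each searched on both strands.
Serpinb9b: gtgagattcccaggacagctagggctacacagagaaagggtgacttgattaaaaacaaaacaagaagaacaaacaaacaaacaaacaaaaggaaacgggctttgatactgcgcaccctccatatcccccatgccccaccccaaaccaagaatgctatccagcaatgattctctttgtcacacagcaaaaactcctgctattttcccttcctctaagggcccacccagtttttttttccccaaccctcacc
Serpinb9: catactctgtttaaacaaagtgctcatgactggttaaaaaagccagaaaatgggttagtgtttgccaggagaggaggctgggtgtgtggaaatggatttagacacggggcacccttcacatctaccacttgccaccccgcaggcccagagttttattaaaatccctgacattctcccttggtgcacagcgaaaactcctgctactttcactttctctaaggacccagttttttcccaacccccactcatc
Serpinb1b: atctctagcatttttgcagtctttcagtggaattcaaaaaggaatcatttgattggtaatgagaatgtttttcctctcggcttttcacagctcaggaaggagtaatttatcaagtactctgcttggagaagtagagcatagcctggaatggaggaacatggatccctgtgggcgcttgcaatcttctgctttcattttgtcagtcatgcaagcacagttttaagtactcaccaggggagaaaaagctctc
Serpinb8: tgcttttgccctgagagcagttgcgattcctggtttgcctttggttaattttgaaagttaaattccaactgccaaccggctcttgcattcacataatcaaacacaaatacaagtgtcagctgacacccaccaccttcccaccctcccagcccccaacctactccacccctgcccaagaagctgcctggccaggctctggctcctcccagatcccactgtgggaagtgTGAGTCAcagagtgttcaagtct

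Of the 8 members 7 had such windows in the RefSeq table, 9 windows in all, and Serpinb1a had none. A TRE was found in 1 of the 9, that of Serpinb8, with its first base 23 bases before the start site. No member window held a CRE or the PU.1 letters, and 1, that of Serpinb6a, held an ARE. Among all 32851 RefSeq windows of that length, 4.46% held a TRE, 1.55% a CRE, 10.2% an ARE and 2.44% the PU.1 letters. The window of Serpinb9b was identical to that of Serpinb9 at 63.8% of 232 aligned bases, against 41.1% of 236 for Serpinb9b and Serpinb1b. The coding sequences of Serpinb9 and Serpinb9b were identical at 86.0% of aligned bases, those of Serpinb6a and Serpinb6b at 86.2% and those of Serpinb1a and Serpinb1b at 90.4%. Of the 50-base words of Serpinb9 0.39%, and of those of Serpinb9b 0.50%, occurred unchanged in another gene, and at most 3.42% for any member. Words with mismatches were not counted, and the assignment of reads between paralogues was not tested. These matches describe letters and show neither binding nor a cause.

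In Scramble iBMDMs the family was made up mostly of Serpinb6a, the mouse counterpart of an inhibitor of cathepsin G, which took 79.2% of the members' summed RPKM. Serpinb6a stood at 338.6 and 389.6 RPKM, followed by Serpinb9b at 54.8 and 48.1 RPKM, Serpinb9, an inhibitor of granzyme B, at 25.1 and 28.1 RPKM, and Serpinb8, known as an inhibitor of furin, at 14.8 and 18.6 RPKM. No neighbours among these 4 overlapped. Serpinb10 (bomapin, a nuclear serpin of blood cells), Serpinb6b and Serpinb2 (plasminogen activator inhibitor 2) averaged 0.392, 0.298 and 0.281 RPKM on 5, 2 and 2 reads and could not be ordered. Serpinb1a, an inhibitor of neutrophil elastase, had no read in any of the 8 iBMDM libraries, where 3 reads would have been 0.0786 RPKM over the deepest pair, JunDKO. Among the other 19 clade B models 13 had no read in any of the 13 libraries, and 2 reached a mean of 1 RPKM in either kind of macrophage, Serpinb1b in iBMDMs and Serpinb1c in TGEMs.

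Serpinb9b, a paralogue of Serpinb9, had 8.25 and 2.74 RPKM in JunKO, 0 and 0.904 in JunDKO, and no read in either Atf3KO library. The 2 Scramble values lay far above the 6 knockout values, and JunKO lay above JunDKO and Atf3KO. Pooled over a group's libraries, Serpinb9b was 62.0-fold lower in JunDKO than in Scramble (32 against 361 reads, 95% counting interval 43.1 to 91.9) and at least 384-fold lower in Atf3KO, where 3 reads over the pair would have been 0.134 RPKM. All 32 JunDKO reads came from replicate 2, which held 18444441 reads in all against 1553297 in replicate 1. The pooled JunDKO ratio is thus mostly that of replicate 2. Serpinb9 had 7.27 and 11.0 RPKM in JunKO, 4.75 and 4.31 in JunDKO and 6.04 and 2.81 in Atf3KO. All 6 knockout values of Serpinb9 lay under both Scramble values, and the JunDKO and Atf3KO values overlapped. Intervals cover counting error only, and p-values measure the spread between libraries, since the labels do not say that the libraries of a group came from separate cultures. As in any bulk RNA-seq, fewer cells of a type and less RNA per cell cannot be told apart.

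**Figure D1:**
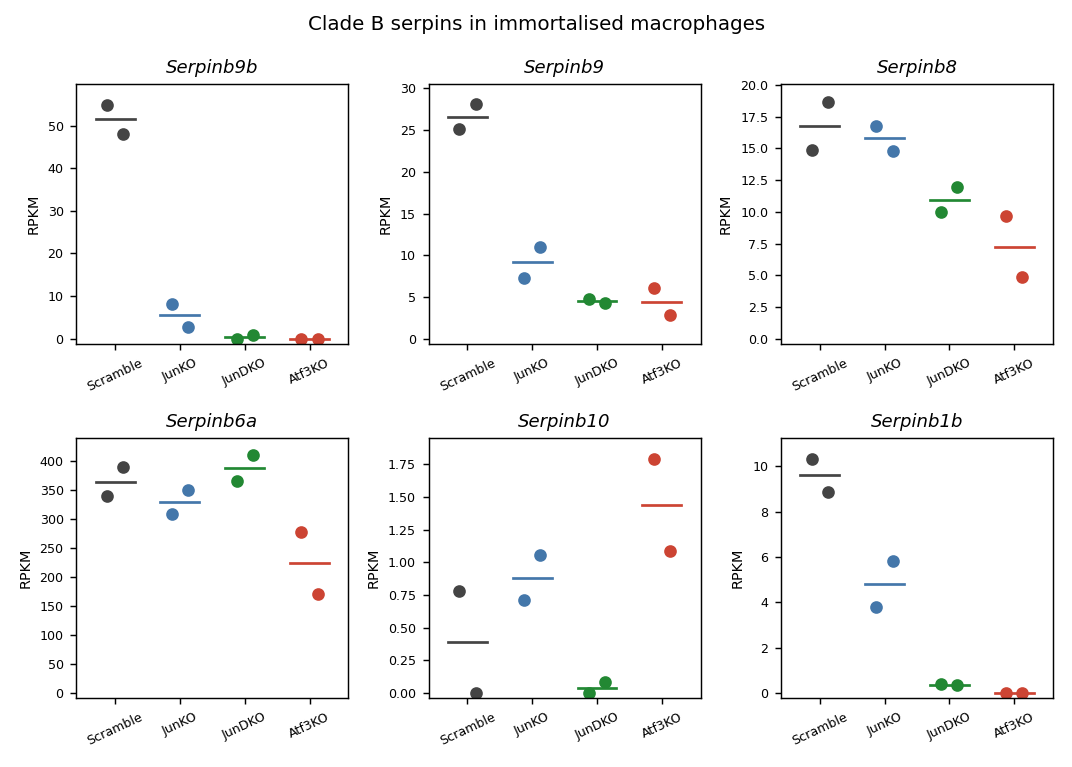
RPKM (linear axis, scale set per panel) of 5 members and of their neighbour Serpinb1b in the 8 iBMDM libraries; points are libraries, lines are means of the 2 libraries of a group. For Serpinb9b the Scramble libraries sit at 54.8 and 48.1 RPKM and every knockout library at 8.25 RPKM or below.

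The JunKO contrast picked the family, so its fitted differences and errors are given as a description. On the log2(RPKM + 1) scale the fitted difference between JunKO and Scramble was -3.15 (SE 0.46) for Serpinb9b, -1.47 (SE 0.32) for Serpinb9, -0.15 (SE 0.24) for Serpinb6a and -0.07 (SE 0.29) for Serpinb8, with a median of 0.01 over the 10691 models tested, those whose mean over the iBMDM libraries reached 1 RPKM. In this contrast 0.281% of tested models passed a Benjamini-Hochberg adjusted p of 0.05 with a 2-fold change, the criteria used for every comparison below, and Serpinb9b was 1 of those 30 models, which the choice of the family fixed. Serpinb8, at 16.8 and 14.8 RPKM in JunKO, and Serpinb6a, at 308.3 and 349.3 RPKM, overlapped Scramble. Serpinb10 had 0.710 and 1.06 RPKM, Serpinb2 0.897 and 1.49 RPKM on 8 reads, and Serpinb6b 2 reads.

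In Atf3KO, aimed at the gene of a stress-induced bZIP factor, RNA of 3 of the 4 members that could be tested passed the test as lower than in Scramble, 1 of them, Serpinb8, resting on a single Atf3KO library, and the other, Serpinb6a, was lower by under 2-fold. The tests for Atf3KO and JunDKO share their Scramble libraries with each other and with the contrast that chose the family, so for Serpinb9b they are not independent of the choice. Against Scramble, the fitted difference in Atf3KO was -5.71 for Serpinb9b (SE 0.46, limma adjusted p = 2.13e-04), -2.41 for Serpinb9 (SE 0.32, adjusted p = 0.00143) and -1.16 for Serpinb8 (SE 0.29, adjusted p = 0.0162). In the same contrast 28.7% of 10691 tested models passed and 14.7% passed as lower, so a call by itself was common here. The 4 tested members had a median of -1.78 against 0.05 over all tested models.

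Serpinb8 had 9.67 and 4.86 RPKM in Atf3KO, both under the Scramble values, with the later-dated replicate 2 at the lower value. Its call rested on that library: with replicate 1 alone, which shares the Scramble date, the difference was -0.72 (SE 0.23, adjusted p = 0.0612), and after removal of each library's GC trend, an alternative added after seeing the data, it was -0.48 (adjusted p = 0.106). Without Scramble replicate 2 the adjusted p was 0.110. Serpinb9 and Serpinb9b passed with either Atf3KO library left out, at -1.97 and -5.71 with replicate 1 alone. For Serpinb6a the Atf3KO values of 276.6 and 171.2 RPKM were both below Scramble, and the difference of -0.74 (SE 0.24, adjusted p = 0.0384) was under 2-fold. Leaving out replicate 1 brought Serpinb6a to -1.08 (adjusted p = 0.00721), which passed. The 4 other members were below the filter, and of these Serpinb10 had its highest iBMDM values in Atf3KO, 1.79 and 1.09 RPKM on 52 reads, against 0.784 and 0 RPKM in Scramble. For Serpinb10 the pooled ratio of Scramble to Atf3KO was 0.307 with a counting interval of 0.0958 to 0.764. No read of Serpinb2 or Serpinb6b was found in Atf3KO.

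JunD, a Jun family monomer of AP-1, was the target in JunDKO, where Serpinb9b and Serpinb9 were the 2 of 4 tested members that passed. The fitted difference from Scramble was -5.24 for Serpinb9b (SE 0.46, adjusted p = 3.50e-04) and -2.32 for Serpinb9 (SE 0.32, adjusted p = 0.00297). Here calls were rarer, since 8.77% of tested models passed and 3.97% passed as lower, while scaling to equal library medians moved the median of all models from 0.23 to -0.04 and the calls from 514 higher and 424 lower to 266 higher and 614 lower. Both serpins passed under every alternative run, with Serpinb9b between -7.34 and -3.37 and Serpinb9 between -2.79 and -1.73. Serpinb8, at 10.0 and 11.9 RPKM, lay below both Scramble values but did not pass (-0.56, SE 0.29, adjusted p = 0.255). Serpinb6a, at 365.1 and 410.6 RPKM, overlapped Scramble, and its difference of 0.09 (SE 0.24, adjusted p = 0.837) turned negative at equal library medians (-0.19). Serpinb10 had 5 reads in the pair, at 0 and 0.082 RPKM, Serpinb6b had 0.348 and 1.08 RPKM, and Serpinb2 had 0.328 and 0.166 RPKM.

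**Figure D2:**
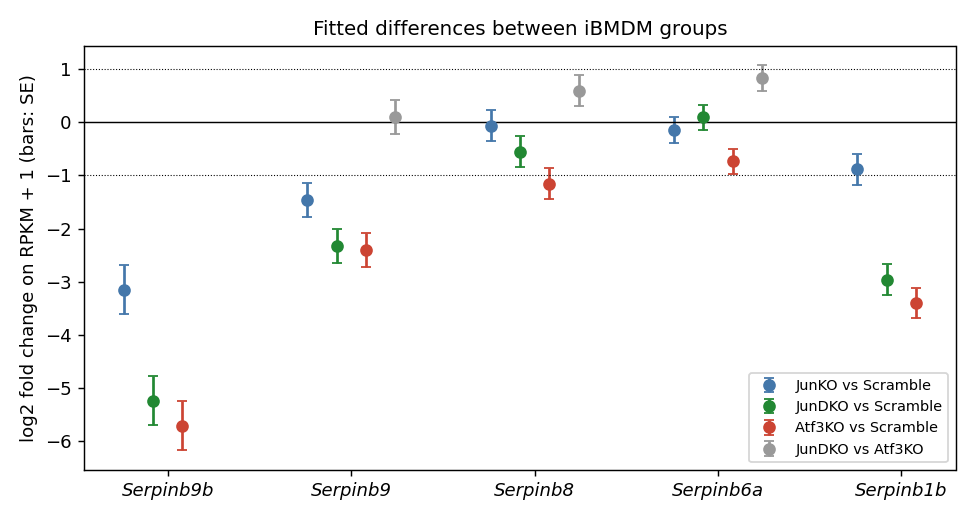
Fitted log2 fold change on the log2(RPKM + 1) scale for the 4 tested members and Serpinb1b; bars are the standard error of the fit, dotted lines mark 2-fold. Serpinb9b, Serpinb9 and Serpinb1b lie below the lower line for JunDKO and Atf3KO against Scramble, and the grey JunDKO against Atf3KO points, drawn for Serpinb9, Serpinb8 and Serpinb6a, lie between 0.09 and 0.83.

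In the direct comparison of JunDKO with Atf3KO the differences themselves come from libraries that did not choose the family, but the spread was estimated over all 4 groups and the filter was a mean over all 8 libraries, so the test is not fully independent of the choice. Serpinb9b, at 0 and 0.904 RPKM in JunDKO and without a read in Atf3KO, was under 1 RPKM in both groups and passed the filter through the other groups, so its fitted difference is not read here. With limma, 0 of the 3 other members that reached the filter passed, 1 had an unadjusted p under 0.05, limma-voom on recovered reads also called 0 of these 3, and 28.6% of the 10691 models passed (1994 higher and 1063 lower, or 1605 and 1415 at equal library medians). The member with that p was Serpinb6a, 1.78-fold higher in JunDKO (0.83, SE 0.24, adjusted p = 0.0253) and so under the 2-fold limit, and the JunDKO values of 365.1 and 410.6 RPKM lay above the Atf3KO values of 276.6 and 171.2. Serpinb9 differed by 0.09 (SE 0.32, adjusted p = 0.836) and Serpinb8 by 0.59 (SE 0.29, adjusted p = 0.139). Fitted and filtered on these 4 libraries alone, the adjusted p was 0.0691 for Serpinb6a, 0.852 for Serpinb9 and 0.223 for Serpinb8.

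Serpinb1b, a paralogue of the elastase inhibitor Serpinb1a that lies next to Serpinb9b, had 10.3 and 8.89 RPKM in Scramble, 3.78 and 5.80 in JunKO, 0.377 and 0.349 in JunDKO and no read in Atf3KO. It is not a member and stays under 16 RPKM, the floor used in the study, but it passed in Atf3KO (-3.40, SE 0.29, adjusted p = 2.68e-04) and in JunDKO (-2.96, SE 0.29, adjusted p = 6.11e-04). Along chromosome 13 the order from Serpinb9 through Serpinb9b to Serpinb1b is unbroken by other models. On their far side lie Serpinb9c to Serpinb9g, none of which had a read. Between 23.0% (Serpinb9c) and 78.69% (Serpinb9f) of their 50-base words occurred in another gene, and the effect of this on their counts was not tested. Of the 17 models between Serpinb1a and Serpinb6a or up to 3 models beyond, members left out, 6 were tested: 3 passed in Atf3KO, all lower, where 14.7% of all tested models passed as lower, and 1 in JunDKO, Serpinb1b, where 3.97% did. The others lower in Atf3KO were Wrnip1 (-1.19, SE 0.27, adjusted p = 0.0109) and Nqo2 (-1.10, SE 0.29, adjusted p = 0.0171), which flank the cluster. With Atf3KO replicate 1 alone 2 of the 6 passed, and Nqo2 was at -0.67 (adjusted p = 0.0584). Without Scramble replicate 1 the 1 left was Serpinb1b, with Wrnip1 at -0.89 (adjusted p = 0.0592) and Nqo2 at -1.17 (adjusted p = 0.0591), and without Scramble replicate 2 Nqo2 was at -1.04 (adjusted p = 0.101). With the GC trend removed Nqo2 was at -0.76, under the 2-fold limit. Ripk1, the kinase gene past Nqo2, differed by 0.03 (SE 0.22, adjusted p = 0.928). None of the 6 chromosome 1 neighbours reached the filter.

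**Figure D3:**
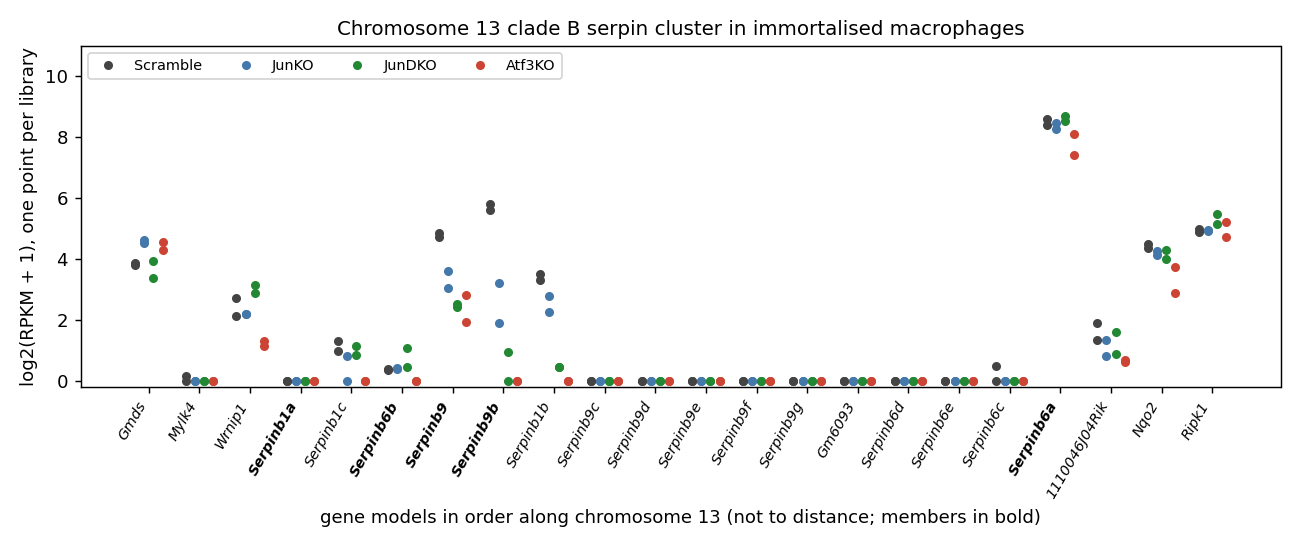
Levels as log2(RPKM + 1) of the gene models along chromosome 13, in order but not to distance, in the 8 iBMDM libraries; each point is a library. Serpinb9, Serpinb9b and Serpinb1b are spread out by group, Serpinb9c to Serpinb9g are at 0, and Serpinb6a stays near 8 to 9 in Scramble, JunKO and JunDKO.

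By Pearson correlation of log2(RPKM + 1) over the 8 iBMDM libraries, among 5428 models with at least 16 RPKM in a group, the patterns most like that of Serpinb9b were those of Gss, glutathione synthetase (r = 0.983), Hk2, a hexokinase (r = 0.975), Xdh, xanthine dehydrogenase (r = 0.972), Txnrd1, a thioredoxin reductase (r = 0.971), and Hsph1, a chaperone (r = 0.970). Serpinb9 had r = 0.925, with 32 models above it. All points share the 4 groups and their depths, so these are descriptions. Gss, for example, had 46.0 and 51.3 RPKM in Scramble, 19.0 and 13.8 in JunKO, 6.94 and 8.57 in JunDKO and 8.64 and 9.79 in Atf3KO, a smaller range than that of Serpinb9b. For Serpinb2 the closest were Chchd3 (r = 0.920), Snhg5 (0.915), Pdzd11 (0.911), Bfar (0.909) and Irf9 (0.899), and this order rests on at most 6 reads of Serpinb2 in any of the 8 libraries.

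In TGEMs the makeup of the family was different. Serpinb6a again led, at 214.0 and 176.7 RPKM in C57Bl/6EiJ vehicle and KLA, 188.4 in Balb/cJ vehicle, and 117.5 and 149.4 in Balb/cJ KLA, all within or below the iBMDM range of 171.2 to 410.6. Serpinb1a, absent from iBMDM reads, had 0.759 to 4.19 RPKM in the 5 TGEM libraries. Serpinb6b had 1.50 to 12.2 RPKM against at most 1.08 in iBMDMs, and Serpinb2 0.804 to 20.6 against at most 1.49. Serpinb9b, at 2.45 to 11.6 RPKM, lay below both Scramble values and overlapped the JunKO values. Serpinb10 had 1 read in all 5 TGEM libraries, and Serpinb1b at most 0.308 RPKM. Cell kind, culture, operator and date go together, so these levels were not tested. The B cell, mast cell, mesothelial and fibroblast markers present in the TGEMs and near 0 in iBMDMs move with the same split, and their part in it was not tested.

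KLA for 1 h gave no member that passed. With limma, 0 of the 7 tested members passed in a fit over the 5 libraries with strain as a covariate, 2 had an unadjusted p under 0.05, limma-voom also called 0, and 1.53% of 10357 models passed. Over all tested models the median difference was -0.15, or -0.01 at equal library medians. Serpinb2, an inhibitor of urokinase known to be induced in stimulated macrophages, was at 0.804 and 1.88 RPKM in C57Bl/6EiJ vehicle and KLA and at 1.52 RPKM in Balb/cJ vehicle against 20.6 and 5.65 RPKM in Balb/cJ KLA. All 3 KLA values thus lay above the vehicle value of their strain, with a fitted difference of 1.57 (SE 0.56, adjusted p = 0.266), and the 2 Balb/cJ KLA libraries, which bear different dates, stood far apart. Serpinb9 went the other way in all 3, from 4.30 to 2.81 RPKM in C57Bl/6EiJ and from 6.30 to 3.54 and 1.71 RPKM in Balb/cJ (-0.81, SE 0.32, adjusted p = 0.307). Serpinb9b was higher in all 3 KLA libraries, at 6.08 against 5.57 RPKM and at 11.6 and 4.59 against 2.45 RPKM (0.78, SE 0.42, adjusted p = 0.420). For Serpinb6a (-0.41, SE 0.27, adjusted p = 0.499) and Serpinb6b (-0.48, SE 0.31, adjusted p = 0.487) all 3 were lower. Serpinb8 (0.36, SE 0.32, adjusted p = 0.621) and Serpinb1a (0.13, SE 0.32, adjusted p = 0.874) were not of the same sign in all 3. Vehicle and KLA share a date in C57Bl/6EiJ and, for the first KLA library, in Balb/cJ, and within these date-matched pairs Serpinb8 was higher with KLA in both, at 8.80 against 6.17 RPKM and 14.7 against 8.38 RPKM (0.59, SE 0.27, adjusted p = 0.505 without the second Balb/cJ KLA library). The KLA change of Serpinb2 was 1.08 RPKM in C57Bl/6EiJ and 19.0 and 4.13 RPKM in Balb/cJ, and a difference between strains in this change was not tested.

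**Figure D4:**
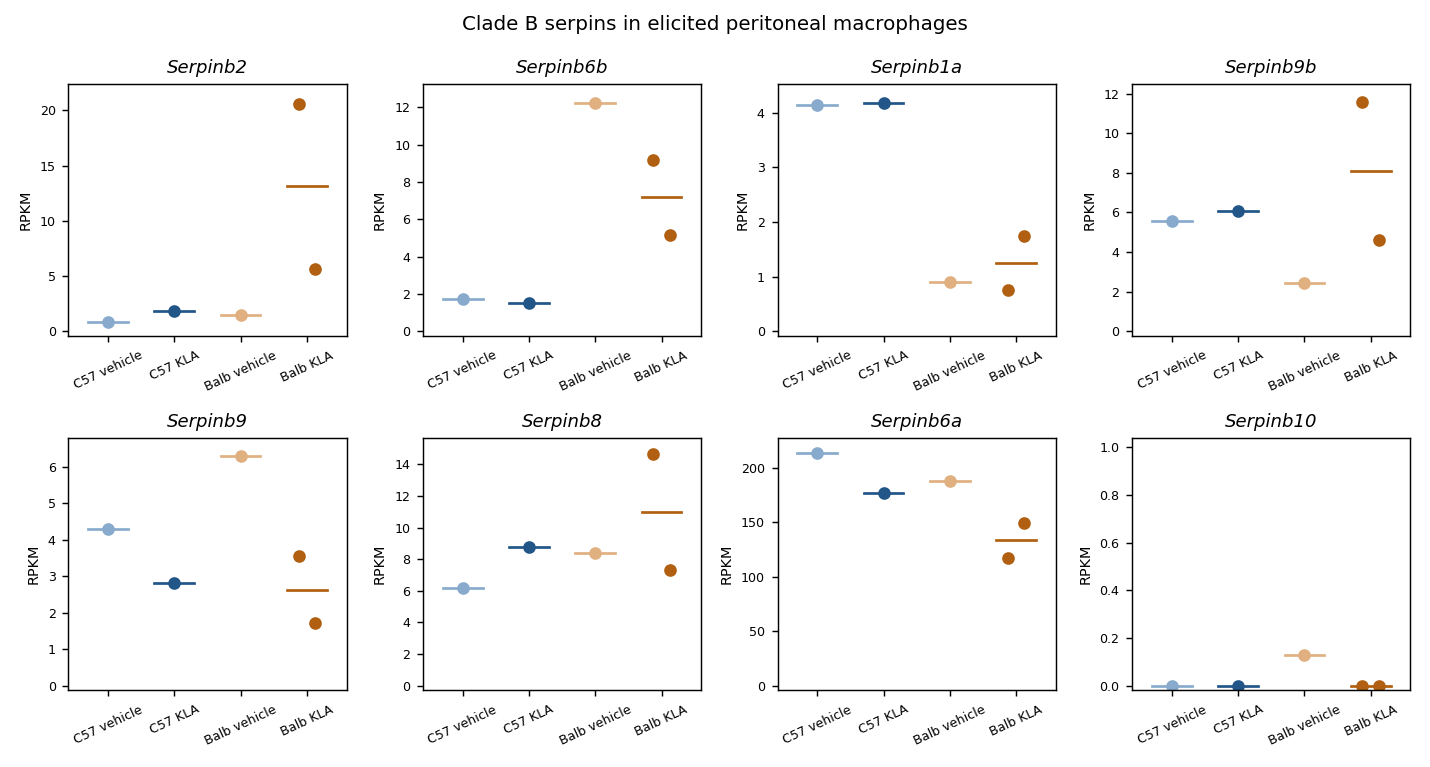
RPKM (linear axis, scale set per panel) of the 8 members in the 5 TGEM libraries by strain and treatment; points are libraries, lines are group means, and 3 of the 4 groups hold 1 library. Serpinb2 reaches 20.6 and 5.65 RPKM in Balb/cJ KLA, and Serpinb6b is at 5.17 RPKM or more in every Balb/cJ library.

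Between strains 1 of the 7 tested members passed, against 2.31% of 10357 tested models (89 higher and 150 lower, or 110 and 114 at equal library medians). Serpinb6b was at 1.75 and 1.50 RPKM in C57Bl/6EiJ and at 12.2, 9.18 and 5.17 RPKM in Balb/cJ, without overlap, and was higher in Balb/cJ by 1.92 (SE 0.31, adjusted p = 0.0299). This call was lost when any 1 of 4 libraries was left out, at adjusted p values of 0.103 to 0.271, and held only without Balb/cJ KLA replicate 2 (2.15, adjusted p = 0.0100). Serpinb1a stood the other way, at 4.13 and 4.19 RPKM in C57Bl/6EiJ and 0.895, 0.759 and 1.75 RPKM in Balb/cJ, and did not pass (-1.32, SE 0.32, adjusted p = 0.0837). Serpinb2 differed by 1.38 (SE 0.56, adjusted p = 0.213). The differences of Serpinb6a, Serpinb8, Serpinb9 and Serpinb9b lay between -0.31 and 0.29 with adjusted p of 0.524 to 0.840. Of the macrophage markers, Adgre1 was at 60.7 and 72.3 RPKM in C57Bl/6EiJ and 31.1 to 35.9 in Balb/cJ, Csf1r at 173 and 183 against 58.6 to 83.1, Fcgr1 at 14.5 and 13.1 against 2.18 to 7.11, Mertk at 41.4 and 57.9 against 15.5 to 20.9 and Itgam at 94.1 and 80.0 against 36.1 to 56.0. Cd68 overlapped, at 2053 and 1769 against 1404 to 4050, as did Lyz2, at 5321 and 5915 against 5765 to 7145. The eosinophil markers summed to 2.67 and 4.06 RPKM in C57Bl/6EiJ and 0.673 to 1.82 in Balb/cJ. None of these was tested, and their part in the strain differences was not tested. Strain went with the genome the reads were aligned to and with the date, and these cannot be told apart.

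Proteases linked to clade B serpins in general, with their partners, were taken as a list of 21 genes. Of these, 12 were tested in iBMDMs and 13 in TGEMs. A listed gene need not be a target of a member, and where no serpin is named beside it none is implied. Gzmb, the target of Serpinb9, and Elane, a target of Serpinb1a, had no read in the iBMDMs, and Gzmb none in the TGEMs. In Atf3KO 1 rose and 4 fell, 5 of 12 where 28.7% of all tested models passed. The riser was Furin, the target of Serpinb8 (1.65, SE 0.30, adjusted p = 0.00444), and the fallers were Ctsh (-2.17, SE 0.25, adjusted p = 8.68e-04), the urokinase receptor gene Plaur (-1.46, SE 0.25, adjusted p = 0.00344), Ctsk (-1.03, SE 0.34, adjusted p = 0.0429) and Casp1 (-1.02, SE 0.34, adjusted p = 0.0419). Furin, Ctsh and Plaur passed with any 1 of the 4 libraries left out, at 1.25 or more for Furin, though Furin was at 0.93, under the 2-fold limit, with the GC trend of each library removed. Casp1 and Ctsk did not hold: with Atf3KO replicate 1 alone they were at -0.51 and -0.84 (adjusted p = 0.209 and 0.196), and neither passed with either 1 of the Scramble libraries left out or with the GC trend removed, where Casp1 was at -0.31 (adjusted p = 0.263). In JunDKO, where 8.77% of all models passed, 1 rose, the urokinase gene Plau (3.55, SE 0.36, adjusted p = 7.17e-04), and 2 fell, Ctsk (-6.04, SE 0.34, adjusted p = 4.22e-05) and Plaur (-1.26, SE 0.25, adjusted p = 0.0140), the last of which was lost with any 1 library left out (adjusted p = 0.0590 to 0.131). Between JunDKO and Atf3KO, where 28.6% of all models passed, 3 were higher in JunDKO (Plau, Ctsh and Ctsl) and 2 lower (Ctsk and Furin), with Furin lost without Atf3KO replicate 2 (-0.64, adjusted p = 0.129) or with 1 JunDKO library left out (adjusted p = 0.118 and 0.114), and with Furin at -0.60 and Ctsl at 0.64 once the GC trend was removed. With KLA, where 1.53% of all models passed, Plau, the target of Serpinb2, was the 1 of 13 that passed (1.81, SE 0.26, adjusted p = 0.0197), and between strains, where 2.31% passed, it was Ctsk, lower in Balb/cJ (-1.76, SE 0.30, adjusted p = 0.0351). Both calls held only without Balb/cJ KLA replicate 2 when libraries were left out, with adjusted p otherwise 0.101 to 0.317 for Plau and 0.107 to 0.298 for Ctsk, which was also lost with the GC trend removed (adjusted p = 0.0514). The cathepsin genes Ctsb, Ctss and Ctsz and the caspase genes Casp4 and Casp8 passed in none of these 5 comparisons. The median over the 12 was -0.54 in Atf3KO and -0.18 in JunDKO, beside 0.05 and 0.23 over all tested models.

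Of 37 serpins of other clades 1 was tested in iBMDMs. Serpine2, protease nexin 1, chosen after its values were seen as the tested model, was lower in Atf3KO (-1.91, SE 0.27, adjusted p = 0.00182) and in JunDKO (-3.29, SE 0.27, adjusted p = 2.81e-04), where 14.7% and 3.97% of all tested models passed as lower. In JunDKO against Atf3KO, where the higher group mean of Serpine2 was 1.89 RPKM, it passed at -1.38 (SE 0.27, limma adjusted p = 0.00523). In that comparison 28.6% of all tested models passed.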

How the data were processed

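The deposited table gives 1 RPKM value per gene model and library, which the authors made from polyA RNA-seq reads aligned with STAR (mm10 for C57Bl/6EiJ, a strain-specific version of it for Balb/cJ) and counted over exons with HOMER. Versions and the strand option of the counting are not given in the sources used here. The exon lengths stand in the same file. The GRO-seq samples have no column in it and were not analysed here.

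Whole reads were recovered from the RPKM steps (tolerance 0.05 reads, up to 50 reads) and gave library totals of 1553297 to 18444441 reads. Depth limits low genes, and counting intervals (95%, exact) and the 3-read floor cover counting error only. Comparisons were fitted with limma 3.58.1 (R 4.3.3; limma-trend) on log2(RPKM + 1), over models whose mean in that fit reached 1 RPKM, with the 4 iBMDM groups in one fit and the 5 TGEM libraries in another with treatment and strain. Fold changes on this scale understate those of low genes. A model passed at a Benjamini-Hochberg adjusted p under 0.05 with at least a 2-fold change, with p-values adjusted over all tested models. On simulated data the fit called 182 to 200 of 200 models changed 4-fold, with 5 to 36 unchanged models called. The simulation gave all models the same fixed spread, changed only models above a set level, and held no date or GC shift. It checks the code and does not give the power to find changes in the real libraries.

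Groups come from the sample labels. Replicate numbers were not used as a block. All 8 members were named, with other clade B models of at least 1 RPKM, the 5 models closest to Serpinb9b and to Serpinb2, and proteases of at least 16 RPKM in a group. Members and lists were chosen with earlier results of these data known. Alternatives were other pseudocounts (0.1 and 5), filters, scalings, limma-voom on recovered reads, a 4-fold limit, a 16 RPKM minimum, a replicate block, fits to fewer or more groups, leaving out each library and, added after seeing the data, removal of each library's GC trend, leaving out the Atf3KO libraries, and both left-out libraries and GC removal for the proteases and chromosome 13 neighbours. RefSeq sequences were handled with Biopython 1.88 under Python 3.11.15. The TGEM results for serpins of other clades are not reported here.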

Additional observations from a re-analysis of the deposited data

How the results depend on the processing

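The number of members that passed stayed within 1.5 times its value under all 16 alternatives for Atf3KO against Scramble (3 members), all 17 for JunDKO against Scramble (2) and all 16 for KLA (0). At the main setting, 28.7% of all tested models passed in Atf3KO, 8.77% in JunDKO and 1.53% for KLA. The share was 28.6% for JunDKO against Atf3KO and 2.31% between strains. Shares under each alternative are not given here. Serpinb9 and Serpinb9b passed under every alternative for both knockouts against Scramble, while Serpinb8 passed in 11 of 16 for Atf3KO. All of these fits use Scramble libraries, which also entered the contrast that chose the family. For Serpinb9b they are therefore not independent of the choice. For JunDKO against Atf3KO the number was 0, and became 1 without a filter on low values (Serpinb10), with quantile normalization (Serpinb6a) and with limma-voom (Serpinb9b, under 1 RPKM in both groups), and 0 to 2 when a replicate was left out, the 2 being Serpinb6a and Serpinb8 without Atf3KO replicate 1. For Balb/cJ against C57Bl/6EiJ the number was 1, became 0 with a pseudocount of 5, without a filter, with the 4-fold limit and with the 16 RPKM minimum, and was 0 to 1 with a library left out. The 4-fold limit and the 16 RPKM minimum lose Serpinb6b by construction. For the other changes the cause was not tested.

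Differences that changed sign were all among those that had not passed. Serpinb6a in JunDKO against Scramble was -0.19 at equal library medians, -0.11 with limma-voom, -0.09 with the GC trend removed, and -0.01 to 0.19 with a Scramble replicate left out. Between JunDKO and Atf3KO, Serpinb9 was -0.07 at equal medians, -0.23 with quantile normalization, -0.65 with the GC trend removed and -0.35 to 0.53 with a replicate left out. In the same contrast Serpinb9b was -0.18, Serpinb1b -0.21 with quantile normalization, and Serpinb9b -0.10, Serpinb1b -0.25 and Serpinb8 -0.20 with the GC trend removed. Serpinb9b and Serpinb1b were under 1 RPKM in both groups there, so nothing is read from their signs. Serpinb1a under KLA was -0.05 to 0.28 with a library left out. Between strains Serpinb9b was 0.12 with limma-voom and -0.93 to 0.24 with a library left out, and Serpinb9 was -0.13 with the GC trend removed and -0.12 to 0.46 with a library left out.

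A replicate block left the members that passed at 3 in Atf3KO, 2 in JunDKO and 0 between them. The differences between replicates correlated at 0.18 to 0.22 across the pairs of Scramble, JunKO and JunDKO, which share a date, and at -0.21 to -0.12 in the pairs with Atf3KO, whose replicate 2 has another date, so equal numbers were not taken to pair the libraries over all 4 groups. In the TGEMs no replicate numbers pair the libraries, but dates pair vehicle with KLA in each strain once Balb/cJ KLA replicate 2 is left out. With strain as a term that fit is the date-paired one, and 0 members passed in it for KLA, as with all 5 libraries. Over all models, 3068 passed in Atf3KO and 703 at the 4-fold limit, 938 in JunDKO and 250 at that limit, 3057 between them and 839 at that limit, 158 for KLA and 28 without Balb/cJ vehicle, and 239 between strains and 32 without Balb/cJ KLA replicate 1. With 2 libraries or fewer in most groups, a fit that leaves 1 library in a group borrows its spread from the other groups.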
